A study of Mus musculus with 32 samples.

Results

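The genes described here are 52 mouse genes of G2 and mitosis, chosen by name and read across treatment and hemisphere in the count tables of whole tissue and of sorted subdural CNS-associated macrophages (sdCAMs). Counts for 51 of the 52 were used, out of 33280 genes in each table, and Hjurp was not analysed here. The libraries came from 8 wild-type C57BL/6JCrl mice of both sexes with an age of 10 ± 3 weeks at the first gavage. The 4 control (CTL) mice (A2, A3, A4 and B1) received vehicle. The 4 repopulated mice (C2, C3, C4 and D1) received 200 mg per kg body weight of BLZ945, an inhibitor of the receptor CSF1R on which brain macrophages depend, by daily gavage for 7 days. All 8 mice, controls included, then underwent a thromboembolic occlusion of the middle cerebral artery 8 weeks after treatment, and the ipsilateral (lesioned) and contralateral hemispheres were collected 1 day later. The contralateral hemisphere is thus that of a mouse with a stroke, and mice without a stroke were not used here. Each hemisphere gave a slice of whole tissue and a sort of Ly6C-Ly6G-CD11c-CD45+CD11b+CD206+ cells.

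A dividing cell makes most of these genes in G2 and M and stops after division. CDK1 with B-type cyclins drives entry into mitosis, condensins and topoisomerase II compact the chromosomes, Aurora and NEK kinases and the chromosomal passengers set up and check the spindle, the anaphase-promoting complex with UBE2C and CDC20 ends mitosis, and the contractile ring splits the cell. Brain macrophages divide rarely at rest and repopulate by division or from blood monocytes, whereas most neurons no longer divide. Several members, such as those of chromatin, nuclear envelope and microtubules, are also used by cells that do not divide.

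Promoters of genes of this group often carry a CHR element (TTTGAA, or TTCAAA on the other strand), which is bound by the MuvB complexes, and CCAAT boxes (CCAAT or ATTGG), which are bound by NF-Y. RefSeq promoter windows of the GRCm38.p6 build, from 250 bases before to 50 bases after a gene's start, were at hand for 46 of the 52 members, and for Aurkb, Cdc25c, Cdca2, Dlgap5, Smc4 and Tpx2 none was used. A CHR was found in 33 of the 46 members (71.7%) and in 20.2% of all 27025 genes with a window. A CCAAT box was found in 35 members (76.1%) and in 41.1% of all genes. Both stood in the same window in 26 members (56.5%) and in 8.0% of all genes. Windows of the 3 members that fell in sdCAMs, together with that of the B-type cyclin Ccnb2 as a classical G2 gene, are shown with the CHR and CCAAT letters in capitals, from 5′ to 3′ on the gene's own strand. Matches were counted on both strands and could overlap.
Tubb4b (chr2:25224653-25224952, minus strand): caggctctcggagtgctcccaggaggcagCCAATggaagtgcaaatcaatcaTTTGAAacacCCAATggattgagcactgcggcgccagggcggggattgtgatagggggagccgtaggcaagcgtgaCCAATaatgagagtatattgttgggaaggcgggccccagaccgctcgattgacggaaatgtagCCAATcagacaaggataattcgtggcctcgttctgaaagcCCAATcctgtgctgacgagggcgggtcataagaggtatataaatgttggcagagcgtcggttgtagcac
Anln (chr9:22389157-22389456, minus strand): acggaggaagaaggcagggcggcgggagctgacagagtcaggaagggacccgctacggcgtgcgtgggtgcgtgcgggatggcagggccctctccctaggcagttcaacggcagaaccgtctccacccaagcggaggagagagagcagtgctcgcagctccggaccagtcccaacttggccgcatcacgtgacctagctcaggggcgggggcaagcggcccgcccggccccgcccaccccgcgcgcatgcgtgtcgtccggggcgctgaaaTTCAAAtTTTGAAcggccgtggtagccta
Ube2c (chr2:164769679-164769978, plus strand): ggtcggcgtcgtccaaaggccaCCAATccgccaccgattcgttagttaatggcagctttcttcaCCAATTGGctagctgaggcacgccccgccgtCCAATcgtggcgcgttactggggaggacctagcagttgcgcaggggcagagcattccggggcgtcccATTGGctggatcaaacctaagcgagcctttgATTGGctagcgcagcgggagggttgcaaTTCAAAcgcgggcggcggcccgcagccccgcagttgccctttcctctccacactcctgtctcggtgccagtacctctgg
Ccnb2 (chr9:70421505-70421804, minus strand): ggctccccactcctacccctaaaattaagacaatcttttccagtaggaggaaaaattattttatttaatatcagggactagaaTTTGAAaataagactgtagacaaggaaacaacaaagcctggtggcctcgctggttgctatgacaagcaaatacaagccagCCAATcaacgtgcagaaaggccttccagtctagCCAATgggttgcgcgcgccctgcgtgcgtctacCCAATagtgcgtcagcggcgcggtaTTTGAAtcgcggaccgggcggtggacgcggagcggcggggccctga
The Tubb4b window held 1 CHR and 5 CCAAT boxes, that of Ube2c 1 CHR and 6 CCAAT boxes of which a pair overlaps on opposite strands, that of Ccnb2 2 CHR and 3 CCAAT boxes, and that of Anln 2 CHR and no CCAAT box.

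Before the results, 3 properties of the libraries matter. The ipsilateral sdCAM libraries of A3 and C2 are marked as degraded RNA in the labels, held 54055 and 55155 counts on genes, and were left out. For mouse A3 the column names of the tissue table exchange the hemispheres relative to the sample titles, and the titles were followed. The other libraries held 9288717 to 12781505 counts on genes in tissue and 7397393 to 11081409 in sdCAMs, of which 12360 to 17566 and 6882 to 11468 fell on members, and 3 counts corresponded to 0.235 to 0.323 and to 0.271 to 0.406 CPM, a count relative to the total of its library. Intervals and limits from counts cover counting error only. All values are in CPM with TMM factors, and tissue and sdCAMs were normalized separately, so a level of one is set beside the other as a description.

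In whole tissue 39 of the 51 members had a count in all 16 libraries, at very uneven levels. The 6 highest members, Rangap1, Cbx5, Ckap5, Tubb4b, Anp32e and Ctcf, made up 85.4% of the summed member CPM. A mean below 1 CPM was found for 20 members and below 5 CPM for 38. Per kb of exon, the order of mean levels was led by the β-tubulin Tubb4b at 73.4 CPM per kb, the Ran GTPase activator Rangap1 at 64.8, the histone chaperone Anp32e at 30.3, the heterochromatin protein Cbx5 at 27.3, the microtubule polymerase Ckap5 at 23.1, the insulator protein Ctcf at 16 and the ring scaffold Anln at 6.20. The kinetochore gene Ndc80 was lowest at 0.0356 CPM per kb. The mitotic kinase gene Cdk1 had a mean of 0.425 CPM over the 16 libraries, close to the level of 3 counts.

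In sdCAMs the same members had another order. Lbr, Tmpo, Anp32e, Tubb4b, Ctcf and Ckap5 made up 64.7% of the summed member CPM. Per kb of exon, Tubb4b stood at 39.2 CPM per kb, the lamin B receptor Lbr at 34.6, Anp32e at 34.2, the chromatin protein Hmgb2 at 17.2, Ctcf at 15.9, the lamina protein Tmpo at 11.7 and the CDK-binding subunit Cks1b at 10.04, and the checkpoint kinase Ttk was lowest at 0.0152. The nuclear envelope genes were higher than in tissue, with mean levels of 165 against 11.5 CPM for Lbr and 129 against 33.1 CPM for Tmpo. Hmgb2 stood at 51.6 against 1.90 CPM, the centromeric histone Cenpa at 18.8 against 1.75 CPM and Cdk1 at 8.89 against 0.425 CPM. Rangap1 (42.4 against 315 CPM), Cbx5 (39.1 against 246 CPM), Ckap5 (53.1 against 219 CPM) and the proliferation marker Mki67 (0.900 against 1.80 CPM) were lower in sdCAMs. A difference between tissue and sdCAMs was not tested.

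**Figure D1:**
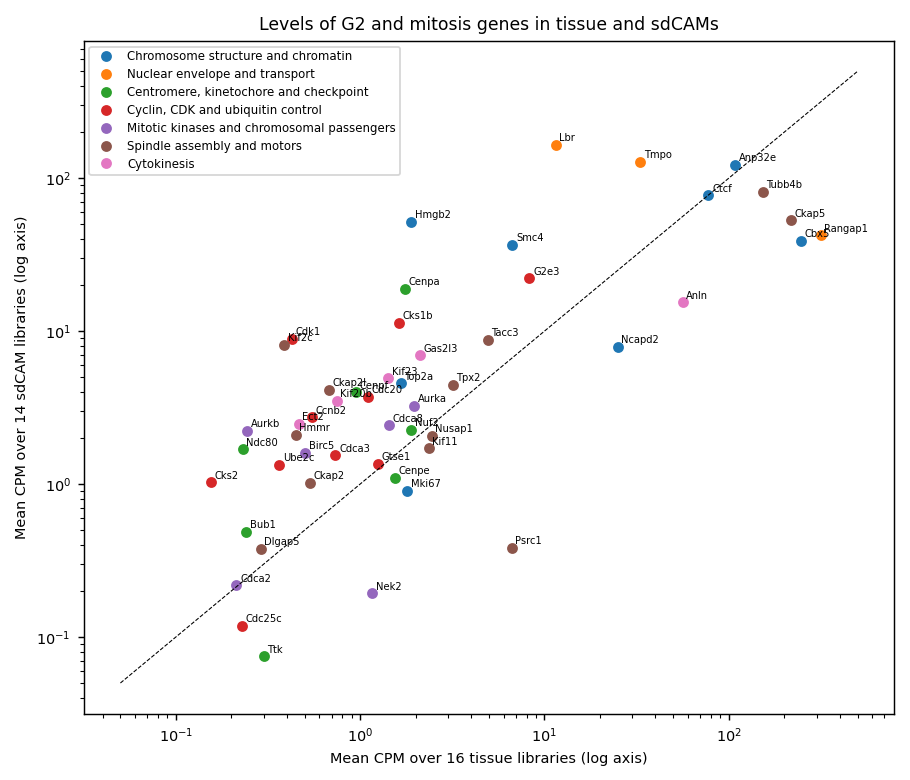
Mean CPM of each measured member over the 16 tissue libraries (x) against the mean over the 14 sdCAM libraries (y), both on log axes and coloured by role; the dashed line marks equal values of scales that were set separately. Lbr (11.5 and 165 CPM) and Hmgb2 (1.90 and 51.6 CPM) lie above the line, and Rangap1 (315 and 42.4 CPM) and Cbx5 (246 and 39.1 CPM) below it.

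Single sdCAM libraries varied far more than tissue libraries in these genes. Only 18 members had a count in all 14 sdCAM libraries, 11 had none in at least 7 of them, and the used libraries held counts for 30 to 50 members on the ipsilateral and 32 to 47 on the contralateral side. In 25 of the 51 members at least 1 sdCAM library of a group had no count while another of the same group exceeded 3 CPM, which occurred for 0 members in tissue, where 38 members had a mean under 5 CPM. The standard error of the log2 difference between hemispheres, averaged over both treatments, had a median over the members of 0.294 in tissue and 1.09 in sdCAMs, and exceeded 1 for 0 and 28 members.

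**Figure D2:**
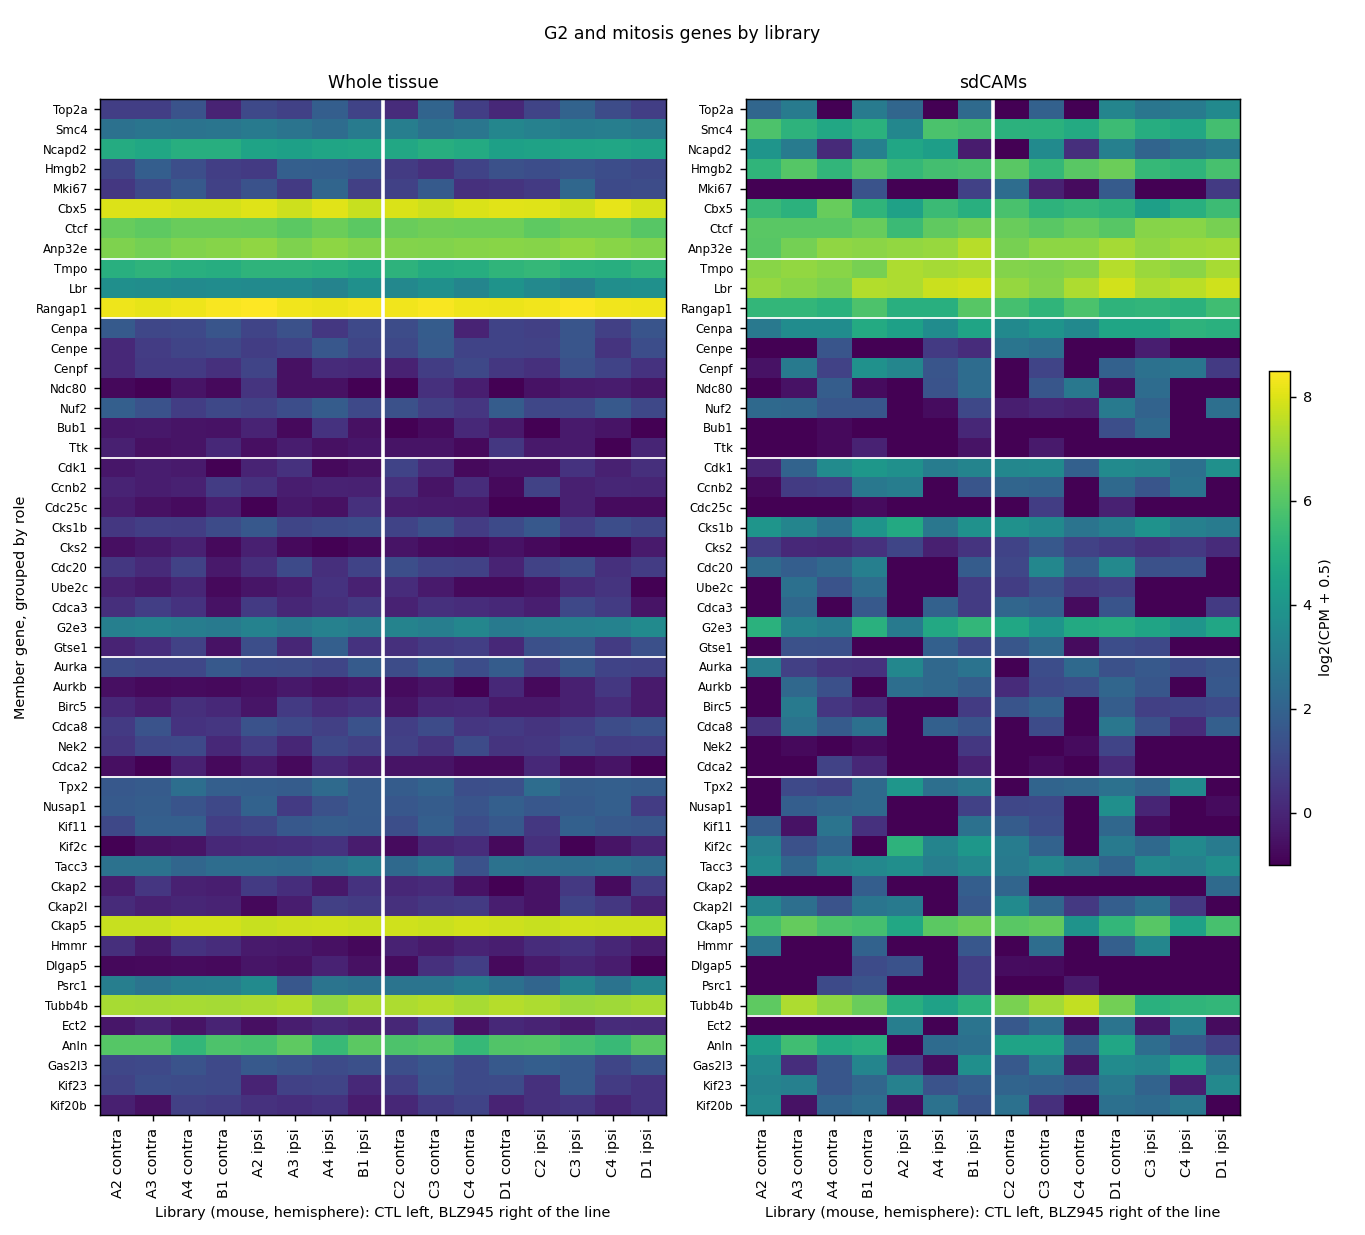
Heat map of log2(CPM + 0.5) for the 51 measured members (rows, grouped by role) in the 16 tissue and 14 sdCAM libraries (columns, CTL left and BLZ945 right of the white line). In tissue 39 members have a count in all 16 libraries, while in sdCAMs 11 members have no count in at least 7 libraries.

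The first question was whether stroke changed the members in whole tissue. No member passed the test in CTL mice, in BLZ945 mice or in the average of both. The test was edgeR's quasi-likelihood test with Benjamini-Hochberg adjustment over all genes, and passing required an adjusted p-value under 0.05 together with a change of more than 0.59 log2 units. Over all 18968 genes tested, 0.443% were called in CTL, 1.16% in BLZ945 and 2.01% in the average. An unadjusted p-value under 0.05 was found for 3 members in CTL, 0 in BLZ945 and 2 in the average. The median log2 difference of the members was 0.10 in CTL, 0.04 in BLZ945 and 0.09 in the average, and that of all genes was −0.01, −0.003 and −0.01. In the average 32 of 51 members (62.7%) were above 0, against 47.7% of all genes. The summed CPM of the members was 1274 to 1372 ipsilaterally and 1258 to 1348 contralaterally, overlapping ranges. In bulk libraries, fewer cells of a type and less RNA per cell cannot be told apart.

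Among the genes of chromosome structure, Ncapd2, a condensin subunit, had 28.2, 24.6, 30.8 and 30.6 CPM in the contralateral CTL tissue (A2, A3, A4 and B1, the order used for all CTL values) and 22.5, 20.4, 23.3 and 24.9 CPM ipsilaterally. In BLZ945 mice it had 25.2, 30.2, 27.7 and 20.5 CPM contralaterally (C2, C3, C4 and D1) and 21.6, 23.7, 23.9 and 22.1 CPM ipsilaterally. Ipsilateral values were lower in 7 of 8 mice, with overlapping groups and a log2 difference of −0.25 ± 0.08 (SE) in the average (adjusted p = 0.108). Mki67, a marker of cycling cells, had 0.951, 1.61, 2.68 and 1.29 CPM contralaterally and 2.11, 1.03, 3.80 and 1.24 CPM ipsilaterally in CTL, and 1.29, 2.72, 0.744 and 0.843 CPM against 1.04, 4.01, 1.68 and 1.80 CPM in BLZ945 mice. Its groups overlapped and its average difference was 0.47 ± 0.36 (adjusted p = 0.648). Top2a, the topoisomerase of chromosome compaction, had 1.19, 1.19, 2.17 and 0.462 CPM contralaterally and 1.64, 1.29, 3.10 and 1.40 CPM ipsilaterally in CTL, and 0.643, 3.66, 1.21 and 0.562 CPM against 1.42, 3.61, 1.79 and 1.20 CPM in BLZ945 mice. It was higher ipsilaterally in 7 of 8 mice, with overlapping groups (0.49 ± 0.40, adjusted p = 0.672). The condensin core gene Smc4 had 5.31 to 6.03 CPM contralaterally and 4.60 to 7.25 CPM ipsilaterally in CTL and 5.33 to 9.64 CPM against 6.59 to 8.5 CPM in BLZ945 mice. The 8 genes of this role had average log2 differences between −0.25 and 0.49. The 3 genes of the nuclear envelope and transport lay between −0.10 and 0.09.

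Among the genes of cyclin, CDK and ubiquitin control, Gtse1, a microtubule-binding protein of G2 that also binds p53, had 0.476, 0.680, 1.34 and 0.185 CPM contralaterally and 1.95, 0.514, 3.18 and 0.824 CPM ipsilaterally in CTL. BLZ945 mice had 0.750, 1.05, 1.21 and 0.562 CPM contralaterally and 1.98, 2.31, 1.05 and 2.00 CPM ipsilaterally. It was higher ipsilaterally in 6 of 8 mice, by 1.16 ± 0.39 log2 units (adjusted p = 0.141), which missed the threshold. With the mouse as a block the difference was 1.12 with an adjusted p-value of 0.0387, so that 1 of 51 members passed, where 2.42% of all genes did. Cdk1, the kinase that drives mitosis, had 0.238, 0.340, 0.309 and 0 CPM contralaterally and 0.469, 0.772, 0.0884 and 0.165 CPM ipsilaterally in CTL, and 1.39, 0.627, 0.0930 and 0.187 CPM against 0.189, 0.802, 0.420 and 0.699 CPM in BLZ945 mice. Several of these values lay under the 3-count level, which limits their precision, and a difference in Cdk1 was not called (0.31 ± 0.58, adjusted p = 0.895). Ccnb2, its B-type cyclin, had 0.476, 0.340, 0.413 and 1.11 CPM contralaterally and 0.781, 0.343, 0.442 and 0.412 CPM ipsilaterally in CTL, and 0.750, 0.209, 0.651 and 0.0936 CPM against 1.32, 0.401, 0.526 and 0.499 CPM in BLZ945 mice (0.23 ± 0.42, adjusted p = 0.893). Of the 10 genes of this role 8 were above 0 in the average, with differences between −0.57 and 1.16, and their summed level was 12.9 to 17.5 CPM ipsilaterally and 10.9 to 16.7 CPM contralaterally.

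The mitotic kinases and passengers were low in tissue, with a mean of at most 1.96 CPM. Aurka, the kinase of the centrosome, had 1.74, 1.53, 1.55 and 2.68 CPM contralaterally and 1.87, 1.8, 1.5 and 2.8 CPM ipsilaterally in CTL, and 1.82, 2.93, 1.86 and 2.90 CPM against 1.23, 2.41, 1.37 and 1.30 CPM in BLZ945 mice. In BLZ945 mice it was lower ipsilaterally in 4 of 4, with overlapping groups (−0.59 ± 0.31, adjusted p = 0.515). Aurkb, the kinase of the passenger complex, had 0.0850 to 0.159 CPM contralaterally and 0.156 to 0.257 CPM ipsilaterally in CTL and 0 to 0.562 CPM against 0.0945 to 0.946 CPM in BLZ945 mice (average 0.89 ± 0.57, adjusted p = 0.549). Birc5, the passenger survivin, had 0.340 to 0.722 CPM against 0.234 to 1.03 CPM in CTL and 0.214 to 0.558 CPM against 0.283 to 0.631 CPM in BLZ945 mice (0.17 ± 0.36, adjusted p = 0.911). Both lay near the 3-count level.

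Of the spindle genes, Hmmr, which organizes spindle microtubules, had 0.713, 0.255, 0.825 and 0.647 CPM contralaterally and 0.312, 0.257, 0.177 and 0.0824 CPM ipsilaterally in CTL. In BLZ945 mice it had 0.429, 0.314, 0.465 and 0.374 CPM contralaterally and 0.661, 0.802, 0.526 and 0.300 CPM ipsilaterally. The difference was −1.49 ± 0.50 in CTL (adjusted p = 0.472) and 0.52 ± 0.48 in BLZ945 mice (adjusted p = 0.793). Tubb4b in tissue had 148 to 154 CPM contralaterally and 123 to 168 CPM ipsilaterally in CTL and 151 to 175 CPM against 133 to 163 CPM in BLZ945 mice (average −0.09 ± 0.06, adjusted p = 0.606). Dlgap5, which stabilizes kinetochore fibres, had 0.0793, 0.0850, 0.103 and 0.0925 CPM contralaterally and 0.234, 0.172, 0.442 and 0.165 CPM ipsilaterally in CTL, groups that did not overlap but lay around 1 to a few counts per library. The BLZ945 mice had 0.107, 0.732, 1.21 and 0.0936 CPM against 0.283, 0.501, 0.315 and 0 CPM. The 12 spindle genes had average differences between −0.49 and 0.74, and their summed level was 371 to 404 CPM ipsilaterally and 381 to 415 CPM contralaterally.

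Of the kinetochore and checkpoint genes, the kinase Bub1 had 0.0857 to 0.796 CPM ipsilaterally and 0.185 to 0.255 CPM contralaterally in CTL and at most 0.558 CPM in BLZ945 mice. The 7 genes of this role lay between −0.46 and 0.76. Of the genes of cytokinesis, Kif23, the motor of the central spindle, had 1.35, 1.87, 1.75 and 1.66 CPM contralaterally and 0.469, 1.29, 1.41 and 0.577 CPM ipsilaterally in CTL, and 1.18, 2.30, 1.67 and 1.78 CPM against 0.756, 2.71, 1.05 and 0.799 CPM in BLZ945 mice. It was lower ipsilaterally in 7 of 8 mice (−0.60 ± 0.30, adjusted p = 0.384). Ect2, the exchange factor that starts the furrow, had 0.206 to 0.462 CPM contralaterally and 0.156 to 0.531 CPM ipsilaterally in CTL and 0.186 to 1.36 CPM against 0.301 to 0.631 CPM in BLZ945 mice. Anln stood at 38.9 to 63.9 CPM contralaterally and 41.8 to 70.4 CPM ipsilaterally, with overlapping groups.

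**Figure D3:**
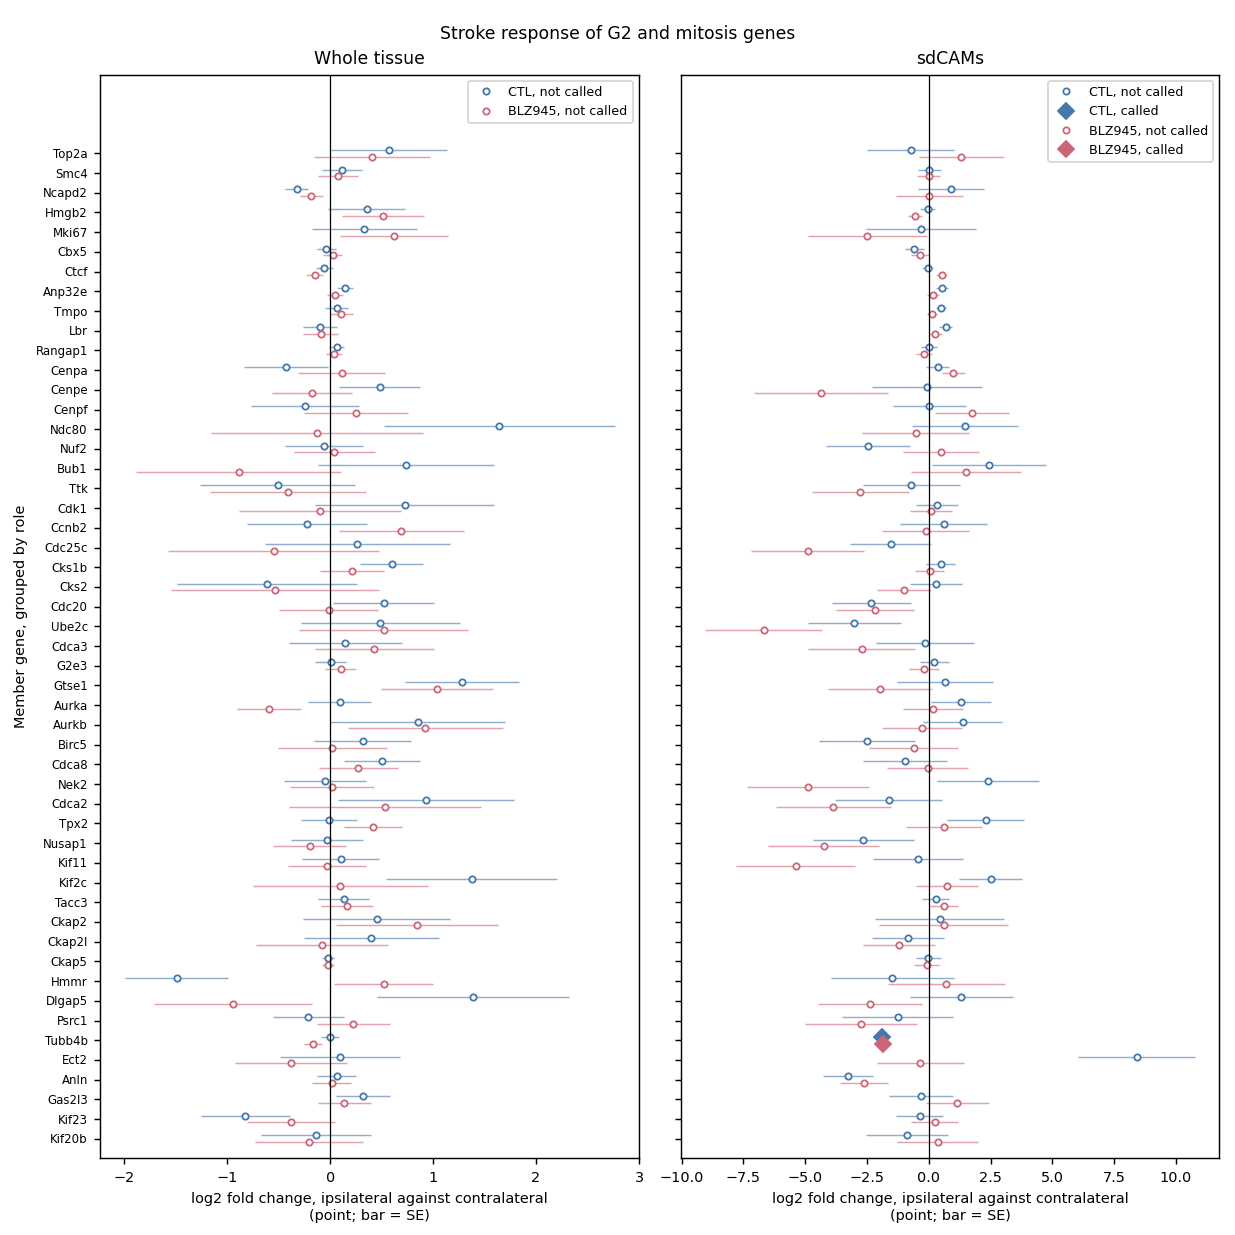
Log2 fold change of each member between ipsilateral and contralateral hemispheres (points, bars are SE) in CTL and BLZ945 mice, in tissue and in sdCAMs on separate scales; diamonds passed the test. Tubb4b in sdCAMs is the only member that passed within a treatment, at −1.90 and −1.86, and points beyond 4 units in sdCAMs belong to genes with few or no counts in a group, whose fitted size depends on the prior count.

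The second question was whether the members responded to stroke in sdCAMs. Here 3 of 51 members (5.88%) fell ipsilaterally in the average of both treatments and 0 rose, where 15% of the 18297 genes tested were called. The β-tubulin Tubb4b fell in each treatment, the ring scaffold Anln and the ubiquitin-conjugating enzyme Ube2c in the average. In CTL and in BLZ945 mice 1 member each was called (Tubb4b), with 2.79% and 5.61% of all genes called. An unadjusted p-value under 0.05 was found for 6 members in CTL, 5 in BLZ945 and 8 in the average. Of the genes called in the average, 715 rose and 2030 fell, and the median log2 difference of all genes was −0.11 in CTL, −0.15 in BLZ945 and −0.16 in the average. With total counts as the only scaling that median was −0.33 in the average, and 283 genes rose and 2322 fell. Relative to the TMM-scaled median, Tubb4b changed by −1.72 in the average. The members' median was −0.02 in CTL, −0.19 in BLZ945 and −0.09 in the average, or 0.02 over the 47 members that could be given a bound where a group had no counts. Their summed level was 863 to 1175 CPM ipsilaterally and 846 to 1177 CPM contralaterally.

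Tubb4b had 69.3, 161, 117 and 80.0 CPM in the contralateral CTL sdCAMs and 30.3, 21.4 and 34.2 CPM ipsilaterally (A2, A4 and B1). In BLZ945 mice it had 95.4, 143, 197 and 87.7 CPM contralaterally and 32.1, 36.8 and 39.1 CPM ipsilaterally (C3, C4 and D1). Every ipsilateral value lay below every contralateral value of either treatment, and the level was lower in 6 of 6 mice with both libraries. The means were 107 ± 41.6 (SD, n = 4) and 28.7 ± 6.58 CPM (SD, n = 3) in CTL, a 3.73-fold difference, and 131 ± 50.5 and 36 ± 3.6 CPM in BLZ945 mice, a 3.64-fold difference. The log2 difference was −1.90 ± 0.34 in CTL (adjusted p = 0.0102), −1.86 ± 0.34 in BLZ945 (adjusted p = 0.00648) and −1.88 ± 0.24 in the average (adjusted p = 0.000182, edgeR). The calls within a treatment rested on single mice, with −1.68 (adjusted p = 0.083) in CTL without A4 and −1.74 (adjusted p = 0.0643) and −1.61 (adjusted p = 0.0591) in BLZ945 without C3 or C4. In tissue the same gene was not called.

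Anln had 19.1, 47.5, 27.8 and 31.4 CPM in contralateral and 0, 4.54 and 5.15 CPM in ipsilateral CTL sdCAMs. Values in BLZ945 mice were 22, 22.1, 3.53 and 24 CPM contralaterally and 4.75, 2.76 and 1.34 CPM ipsilaterally. The CTL groups did not overlap, the BLZ945 groups overlapped through C4, and the level was lower ipsilaterally in 6 of 6 mice. The log2 difference was −3.27 ± 1.00 in CTL (adjusted p = 0.0964), −2.60 ± 0.97 in BLZ945 (adjusted p = 0.132) and −2.94 ± 0.70 in the average, which passed (adjusted p = 0.0104). Ube2c had 0, 5.22, 2.19 and 4.70 CPM in contralateral and 0, 0 and 1.07 CPM in ipsilateral CTL sdCAMs. It had 1.14, 2.07, 1.01 and 1.23 CPM in contralateral BLZ945 sdCAMs and no count in the 3 ipsilateral ones, at least 11.8-fold lower against a floor of 3 counts over the group. It was lower ipsilaterally in 5 of 6 mice, and A2 had no count on either side. The average passed at an adjusted p-value of 0.0435 and did not pass with the mouse as a block (log2 difference −5.07 against −4.85, adjusted p = 0.159), where 10.1% of all genes were called. Leaving out any of A3, A4, C2, C3, C4 or D1 also took the call away, with adjusted p-values of 0.0599 to 0.112 and differences of −4.62 to −4.91.

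Markers of other cell types differed between the same sdCAM sorts, as counted here in the average of both treatments. All 5 of 5 endothelial markers fell ipsilaterally, with a summed level of 37.1 to 102 CPM against 478 to 1246 CPM contralaterally, and all 4 of 4 oligodendrocyte markers, with 78.2 to 455 CPM against 407 to 4885 CPM. Markers of choroid plexus and ependyma, of which 3 of 4 fell, summed to 0.502 to 1482 CPM ipsilaterally and 52.7 to 36480 CPM contralaterally, although the labels name brain without choroid plexus as the source. All 8 of 8 border macrophage markers rose (4 of 8 with the mouse as a block), with summed levels of 4548 to 9236 CPM against 1548 to 5739 CPM, ranges that overlapped, and in A2 the sum was lower ipsilaterally (4548 against 5369 CPM). Microglia markers summed to 8753 to 24950 CPM ipsilaterally and 5519 to 16340 CPM contralaterally, ranges that overlapped. In the mean of each group the microglia sum was higher than the border macrophage sum. Of the oligodendrocyte precursor markers 3 of 4 fell (4.08 to 35.8 against 28.7 to 140 CPM), of the erythroid markers 1 of 3 (6.18 to 117 against 47.4 to 870 CPM) and of the monocyte markers 1 of 5 (221 to 410 against 359 to 1420 CPM). None of 6 neutrophil precursor markers was called, and their sum reached 744 CPM in one ipsilateral CTL library and 547 CPM in one contralateral BLZ945 library. No marker of these lists was at 0 in every library. Among the contralateral libraries, Anln was highest in A3 (47.5 CPM), where the oligodendrocyte sum was 4885 CPM, and lowest in C4 (3.53 CPM), where it was 407 CPM, but A2, with the next highest sum (2854 CPM), had the next lowest Anln (19.1 CPM), and B1, with a sum of 1719 CPM, the next highest (31.4 CPM). Anln is known to be made by myelinating oligodendrocytes as well as by dividing cells. Tubb4b was lowest on that side in A2 (69.3 CPM) and B1 (80.0 CPM), where the endothelial sum was 478 and 492 CPM, and highest in C4 (197 CPM) and A3 (161 CPM), where it was 997 and 1246 CPM. Tubb4b is known as a tubulin of cilia. In rising order of contralateral Tubb4b, the choroid plexus and ependymal sum was 52.7 (A2), 201 (B1), 5110 (D1) and 1451 CPM (C2). In the same order it was then 8830 (A4), 19700 (C3), 503 (A3) and 36480 CPM (C4). The part of these markers in the results for the members, and in those for the other cell cycle genes further on, was not tested.

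**Figure D4:**
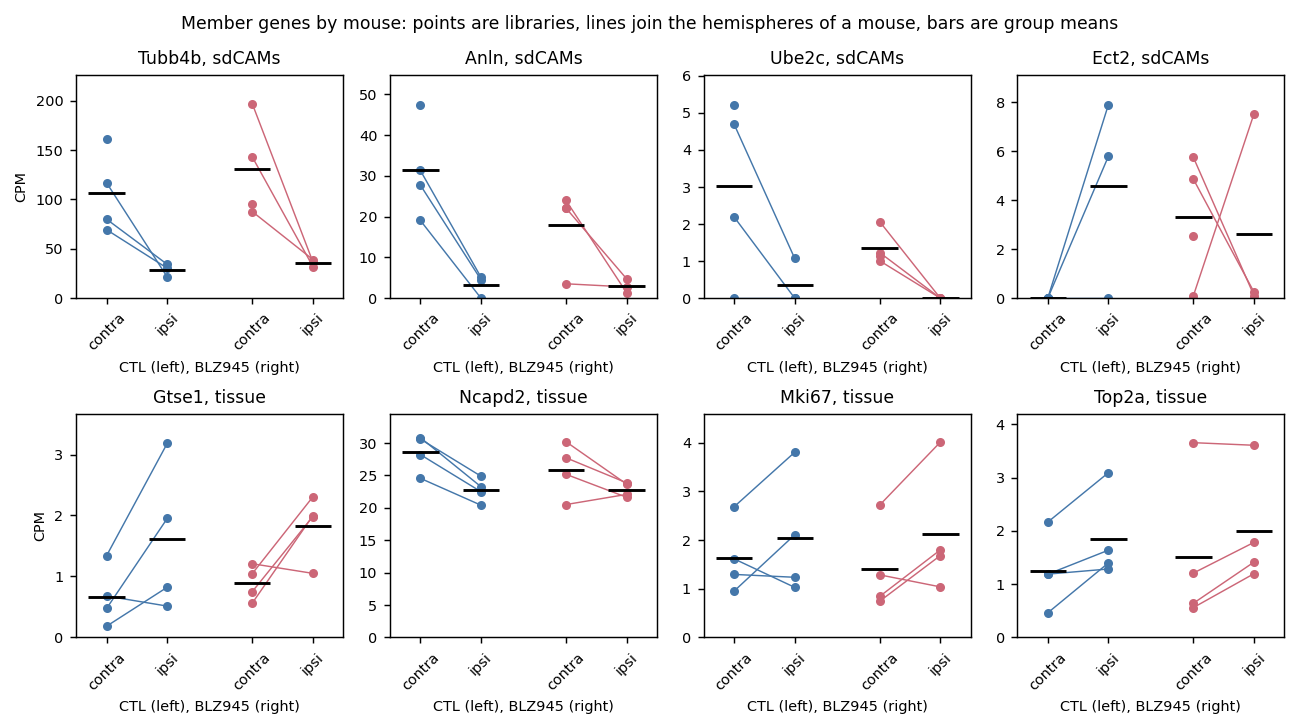
CPM per library of 4 members in sdCAMs (top) and 4 in tissue (bottom), with contralateral and ipsilateral libraries of a mouse joined by lines and group means as bars. All 6 lines of Tubb4b and of Anln run down, and the groups of the tissue genes overlap.

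The other roles showed no member past the edgeR test. Of the chromosome genes, Mki67 had 0, 0, 0 and 2.19 CPM in contralateral and 0, 0 and 1.29 CPM in ipsilateral CTL sdCAMs, and 4.81, 0.413, 0.101 and 2.77 CPM against 0, 0 and 1.03 CPM in BLZ945 sdCAMs. The marker was thus without a count in 7 of 14 libraries (average difference −1.40 ± 1.63, adjusted p = 0.626). Top2a had 3.86, 7.26, 0 and 7.32 CPM against 3.89, 0 and 4.40 CPM in CTL, and 0, 3.41, 0 and 9.44 CPM against 6.09, 7.28 and 10.8 CPM in BLZ945 sdCAMs (0.30 ± 1.21, adjusted p = 0.943). Ctcf had 67.2, 66.6, 66.2 and 78.0 CPM against 43.6, 72.0 and 86.3 CPM in CTL and 80.2, 65.8, 77.7 and 64.4 CPM against 108, 112 and 92.1 CPM in BLZ945 sdCAMs. The BLZ945 hemispheres of Ctcf did not overlap, with a difference of 0.53 ± 0.22 (adjusted p = 0.176). The 8 chromosome genes lay between −1.40 and 0.47 in the average, and the 3 genes of the nuclear envelope between −0.09 and 0.48.

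Of the CDK genes, Cdk1 had 0.470, 3.58, 11.6 and 15.8 CPM in contralateral and 13, 7.39 and 9.23 CPM in ipsilateral CTL sdCAMs, and 10.004, 11, 3.23 and 11.2 CPM against 9.75, 5.15 and 13.1 CPM in BLZ945 sdCAMs. It was detected in all 14 libraries, higher ipsilaterally in 3 of 6 mice and lower in 3 (0.20 ± 0.60, adjusted p = 0.894). Its cyclin Ccnb2 had 0.0941, 1.06, 1.18 and 6.45 CPM against 7.65, 0 and 2.36 CPM in CTL and 3.80, 3.51, 0 and 4.21 CPM against 2.32, 5.65 and 0 CPM in BLZ945 sdCAMs (0.24 ± 1.24, adjusted p = 0.965). Cdc25c, the phosphatase that activates CDK1, had no count in 11 of 14 libraries, with 1.14, 0.41 and 0.109 CPM in the contralateral sorts of C3, D1 and B1. The 10 genes of this role lay between −4.85 (Ube2c) and 0.27.

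Of the kinases and passengers, Aurkb had 0, 4.16, 2.03 and 0 CPM against 4.89, 4.15 and 3.0 CPM in CTL, higher ipsilaterally in 3 of 3 mice, and 0.633, 1.65, 1.92 and 3.90 CPM against 2.44, 0 and 2.57 CPM in BLZ945 sdCAMs, lower in 2 of 3 (average 0.55 ± 1.12, adjusted p = 0.823). Birc5 had 0, 6.97, 0.928 and 0.546 CPM against 0, 0 and 1.07 CPM in CTL and 2.28, 3.41, 0 and 2.98 CPM against 1.22, 1.38 and 1.65 CPM in BLZ945 sdCAMs (−1.55 ± 1.32, adjusted p = 0.469). Nek2, a kinase of centrosome separation, reached 1.44 CPM in the contralateral sort of D1 and 0.966 CPM in the ipsilateral sort of B1 and had at most 0.109 CPM elsewhere. The checkpoint kinase Bub1 was counted in 4 libraries, at 4.27 CPM in the ipsilateral sort of C3, 1.95 CPM in the contralateral sort of D1, 0.536 CPM in the ipsilateral sort of B1 and 0.0844 CPM in the contralateral sort of A4. Such isolated values left the 6 kinase and passenger genes with average differences between −2.73 and 0.74 and the 7 kinetochore genes between −2.22 and 1.98, without a call.

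Of the spindle genes other than Tubb4b, Dlgap5 had 0, 0, 0 and 1.75 CPM against 2.13, 0 and 1.18 CPM in CTL, at most 0.127 CPM in contralateral BLZ945 sdCAMs and no count ipsilaterally there. The 12 spindle genes summed to 89.5 to 166 CPM ipsilaterally and 160 to 252 CPM contralaterally, a sum in which Tubb4b was the highest member by mean contralaterally and Ckap5 ipsilaterally. Of the genes of cytokinesis, Ect2 had no count in the 4 contralateral CTL libraries and 7.90, 0 and 5.79 CPM ipsilaterally, at least 65.5-fold higher against a floor of 3 counts over the group. In BLZ945 sdCAMs it had 2.53, 4.86, 0.101 and 5.75 CPM contralaterally and 0.244, 7.53 and 0.103 CPM ipsilaterally. Ect2 was not called by edgeR in CTL (adjusted p = 0.0838) and was called by the Wald test of DESeq2 (adjusted p = 0.00241). DESeq2 called 3 members in CTL (Anln, Ect2 and Tubb4b), where it called 9.63% of all genes, 3 in BLZ945 (Anln, Tubb4b and Ube2c) with 13.2% of all genes, and 5 in the average (with Ect2 and Nusap1) with 19.5% of all genes.

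**Figure D5:**
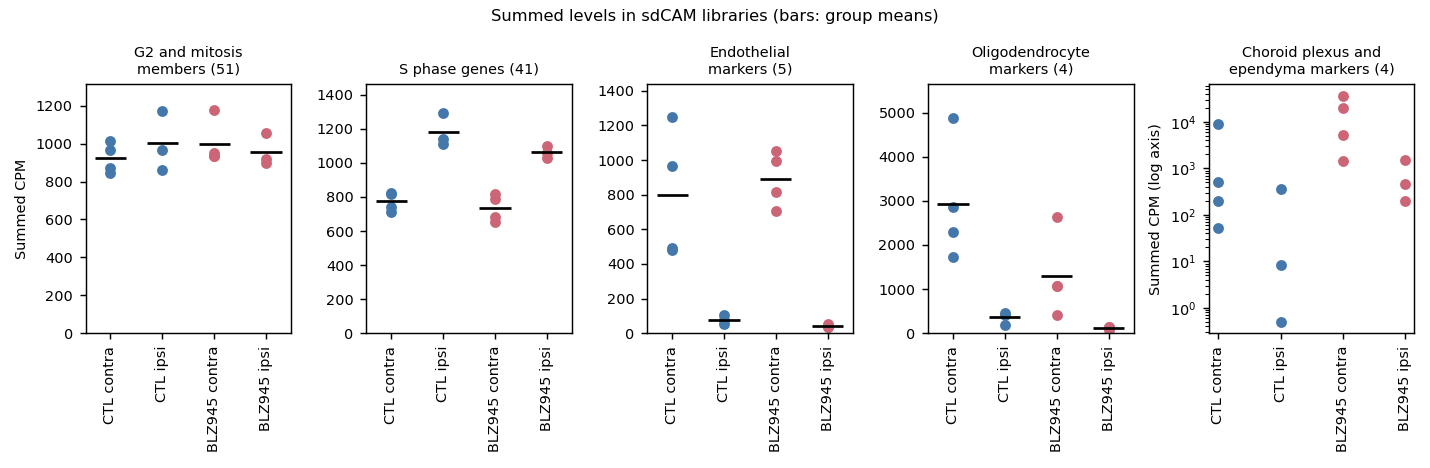
Summed CPM per sdCAM library (points, with group means as bars in all panels but the last, which has a log axis) for the members, the S phase genes and the markers of endothelial cells, oligodendrocytes and choroid plexus with ependyma. The members span 863 to 1175 CPM ipsilaterally and 846 to 1177 CPM contralaterally, while the S phase sums and the endothelial sums do not overlap between hemispheres.

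The third question was whether repopulated mice differed from CTL mice. No member was called between treatments in either hemisphere, and none in the difference of the stroke responses, in tissue or in sdCAMs, with 0% of all genes called in each of these 6 comparisons. In tissue an unadjusted p-value under 0.05 was found for 1 member each in the difference of responses (Hmmr, 2.01 ± 0.70, adjusted p = 1), ipsilaterally (Hmmr, 1.41 ± 0.51, adjusted p = 0.958) and contralaterally (Dlgap5, 2.45 ± 0.88, adjusted p = 1). The members' median was −0.04 for the difference of responses, 0.01 for BLZ945 against CTL ipsilaterally and 0.05 contralaterally. In sdCAMs 2 members had an unadjusted p-value under 0.05 in the difference of responses, 2 ipsilaterally and 1 contralaterally. Ctcf was higher in the 3 ipsilateral BLZ945 libraries (92.1 to 112 CPM) than in the 3 CTL ones (43.6 to 86.3 CPM), without overlap, by 0.63 ± 0.24 log2 units (adjusted p = 0.838). Ect2 had 2.53, 4.86, 0.101 and 5.75 CPM in contralateral BLZ945 sdCAMs and no count in the contralateral CTL ones. Pooled over the group it was at least 46.6-fold higher against a floor of 3 counts. That bound leaves out the spread between mice, and the C4 value was 1 count. Ect2 was not called by edgeR (adjusted p = 0.759). It was the only member called between treatments by DESeq2 (adjusted p = 0.0477), which called 0.213% of all genes there. The members' median was −0.42 for the difference of responses, −0.22 for BLZ945 against CTL ipsilaterally and 0.06 contralaterally. The Tubb4b responses of both treatments differed by 0.04 ± 0.46 (SE, adjusted p = 1).

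Other cell cycle genes came from lists chosen with results of these data known. In the average, 2.01% of all genes were called in tissue and 15% in sdCAMs, so that 1 of 30 genes (3.33%) is near the share of all genes in tissue and below it in sdCAMs. Of 30 further G2 and mitosis genes in tissue, 1 rose in the average, the kinesin Kif18a (0.99 ± 0.25, adjusted p = 0.035), and in sdCAMs 1 fell, the securin Pttg1 (−0.83 ± 0.21, adjusted p = 0.0149). The cyclins Ccna2 and Ccnb1, the kinase Plk1 and the factor Foxm1, which switches on many members, were not called in either, with average differences of 0.04, −0.79, 0.19 and −0.02 in tissue. Their average differences in sdCAMs were −1.32 ± 1.13, −2.47 ± 1.26, −2.20 ± 1.68 and 0.74 ± 1.57, with each gene at no count in some libraries. Of 24 genes of cycle entry and arrest in tissue, 3 rose in the average, the arrest gene Cdkn1a (0.82 ± 0.10, adjusted p = 0.000127), the G1 kinase Cdk6 (0.85 ± 0.16, adjusted p = 0.0063) and Myc (0.78 ± 0.18, adjusted p = 0.0196). Ccnd1, a G1 cyclin, had an adjusted p-value of 0.0224 with 0.32 ± 0.07, under the fold threshold. In sdCAMs 2 of the 24 rose, Ccnd1 (0.84 ± 0.24, adjusted p = 0.0248) and the S phase factor E2f1 (1.42 ± 0.43, adjusted p = 0.0366), and 3 fell, the arrest genes Cdkn1c (−2.53 ± 0.43, adjusted p = 0.0012) and Cdkn1a (−0.99 ± 0.32, adjusted p = 0.046) and the cyclin Ccnd2 (−0.65 ± 0.18, adjusted p = 0.0274). With the mouse as a block E2f1 (adjusted p = 0.294), Cdkn1a (adjusted p = 0.0697) and Ccnd2 (adjusted p = 0.0686) did not pass in sdCAMs.

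Of 41 S phase genes, 9 rose and 0 fell in ipsilateral sdCAMs in the average, with a median log2 difference of 0.81 and summed levels of 1030 to 1296 CPM against 652 to 826 CPM, ranges that did not overlap. Genes that rose made up 22% of this list and 3.91% of all genes tested (715 of 18297), and with the mouse as a block 6 of the 41 rose, where Gins2 (adjusted p = 0.0854), Slbp (0.56, under the fold threshold) and Mcm7 did not pass. In the same libraries the border macrophage sum had means of 6516 (CTL) and 6902 CPM (BLZ945) ipsilaterally against 3960 and 2592 CPM contralaterally, and the endothelial and oligodendrocyte sums were lower ipsilaterally. The microglia sum had means of 18620 (CTL) and 14010 CPM (BLZ945) ipsilaterally against 13950 and 8276 CPM contralaterally, with overlapping ranges. The replication helicase genes Mcm5 (1.70 ± 0.33, adjusted p = 0.0031), Mcm6 (0.94 ± 0.20, adjusted p = 0.0051) and Mcm2 (1.04 ± 0.28, adjusted p = 0.0221), the helicase partner Gins2 (1.5 ± 0.41, adjusted p = 0.0212) and the histone mRNA-binding gene Slbp (0.61 ± 0.15, adjusted p = 0.0102) were among them, and Pcna was not (0.26 ± 0.21, adjusted p = 0.448). In tissue 2 of the 41 rose, Uhrf1 (1.25 ± 0.26, adjusted p = 0.0126) and Mcm6 (0.66 ± 0.17, adjusted p = 0.0434). Within a treatment, Cdkn1a rose in tissue in CTL and in BLZ945 (0.75 and 0.89) and Uhrf1 in BLZ945 (1.68). In sdCAMs Cdkn1c fell in both (−2.45 and −2.61), and Ccnd1 rose (1.25) and Mdm2 (−0.94) and Ccnd3 (−0.85) fell in BLZ945 mice. With the mouse as a block Cdkn1c in CTL (adjusted p = 0.11) and Mdm2 in BLZ945 (adjusted p = 0.065) did not pass. The G2 and mitosis members, with 0 genes up and a median of −0.09, came from the same sdCAM libraries as the S phase genes. In these libraries 32 of the 51 members had a mean under 5 CPM, and 28 had an SE over 1 in the average. Both limit calls among the members, and these shares are not given here for the S phase genes. A difference between the lists was not tested.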

How the data were processed

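The authors aligned single-end reads with STAR 2.7.11a and counted them on genes with featureCounts 2.0.8, and deposited raw counts per gene as 1 table for tissue and 1 for sdCAMs. The submitters' processing notes also name bcl2fastq 2.20 and DESeq2 1.46.0. The genome build of the counts is not given in the sources used here, so no coordinates were tied to them. Library preparation (Nextera XT) does not mark strand. Promoter sequences were taken from RefSeq tables of GRCm38.p6, and exon lengths, as the union of a gene's exons, from the GENCODE M21 annotation of GRCm38.

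Counts were fitted with edgeR 4.0.16 (R 4.3.3, limma 3.58.1) by the quasi-likelihood test with TMM, 1 model per table with 4 group means (treatment by hemisphere). Genes whose counts summed to less than 8 (tissue) or 7 (sdCAMs) were not tested, and all 51 measured members passed. Calls required an adjusted p-value (Benjamini-Hochberg, all genes tested) under 0.05 and more than 0.59 log2 units of change, two-sided. The SE of a log2 difference was its absolute value divided by the square root of the test's F statistic. Where a group had few or no counts, this SE also depended on the prior count. The 6 contrasts per table were the hemispheres within CTL, within BLZ945 and averaged, the interaction, and the treatments within either hemisphere. The stroke comparisons of a treatment and the mean share samples. The model was also run on simulated counts, with changes set only in well-counted genes and with the hemispheres of a mouse drawn independently. That run therefore does not cover members with few counts or the pairing of hemispheres. The libraries came from 8 mice, each with 2 hemispheres in tissue and sdCAMs, in a single batch per the labels. Without the block, both hemispheres of a mouse enter as separate samples. DESeq2 1.42.0, other scalings, no filter, a block for the mouse, all 16 sdCAM libraries, an exchange of the hemispheres of A3 and leaving out each mouse were alternatives, and the exchange together with the block was chosen after seeing the data. Hemispheres of a mouse are paired by the animal. The correlation of their deviations from the group means had a median of 0.436 in tissue (0.214 to 0.645, 8 mice, 14317 genes) and 0.122 in sdCAMs (0.045 to 0.191, 6 mice, 13828 genes).

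The members and all gene lists were chosen with earlier results of these data known. Values in every library, or their range where they lie near the count floor, are given for members called in a comparison, for the 3 members of smallest p-value where none was called, and for Mki67, Top2a, Cdk1, Ccnb2, Aurkb and Birc5. Genes of other lists are named if called, up to 5 a list by p-value, beside 8 genes named whatever their result. Depth limits precision to about 3 counts per gene and library.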

Additional observations from a re-analysis of the deposited data

Results flagged for a closer look

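In 15 of 99 groups of 4 libraries tested, 1 library stood apart from the other 3 by a Dixon test. Chance gives this in about 1 of 20 groups of normally distributed values, and CPM values from few counts need not follow that distribution. In 5 of the 15 the other 3 libraries had no count, so that any count would stand apart and the chance rate does not hold. In tissue these were the ipsilateral BLZ945 values of Aurka (2.41 CPM in C3), Kif23 (2.71 CPM in C3) and Ccnb2 (1.32 CPM in C2). In contralateral CTL sdCAMs they were B1 for Ctcf (78.0 CPM), Dlgap5 (1.75 CPM), Mki67 (2.19 CPM) and Cdc25c (0.109 CPM, 1 count), A4 for Bub1 (0.0844 CPM, 1 count) and A3 for Birc5 (6.97 CPM). In contralateral BLZ945 sdCAMs they were C4 for Anln (3.53 CPM), Cdk1 (3.23 CPM) and Ccnb2 (0 CPM), and D1 for Nek2 (1.44 CPM), Bub1 (1.95 CPM) and the summed level of all members (1177 CPM). C4 is also the contralateral sdCAM library with the lowest oligodendrocyte sum (407 CPM) and the highest sum of choroid plexus and ependymal markers (36480 CPM).

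In the degraded ipsilateral sdCAM library of A3, which entered no comparison, 0.213% of the 54055 counts fell on members (115 counts), above the share in each contralateral CTL library. In the other degraded library, the ipsilateral one of C2, 0.0907% of 55155 counts (50 counts) fell on members, below the share in each contralateral BLZ945 library. A difference was not tested.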

How the results depend on the processing

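The number of members called stayed within 1.5 times the main count in 189 results under the alternatives and moved in 11. Comparisons without a call in either fit counted as within, and so did a fall from 3 to 2 calls in the sdCAM average. With the replicate block for the mouse, 1 tissue member (Gtse1, 1.12) was called in the average against 0, and in sdCAMs Ube2c was lost. Among the members no other call changed under this pairing, and it could not be applied to the treatment comparisons, since a mouse has 1 treatment. DESeq2 called 3 sdCAM members in CTL, 3 in BLZ945, 5 in the average and 1 (Ect2) between contralateral treatments. Leaving out each mouse gave 0 to 2 called members in CTL (0 without A4, 2 without C4), 0 to 2 in BLZ945 (2 without A2, 0 without C3 or C4) and 2 to 5 in the average (5 without B1, which added Cdc20 and Kif11). The median of the members moved beyond the replicate spread only for the difference of responses, to −0.13 without C4 in tissue and 0.14 without B1 in sdCAMs. With all 16 sdCAM libraries, the degraded ones included, Ube2c had an adjusted p-value of 0.062 in the average. Directions turned only for uncalled members. In the tissue average Cdk1 was −0.20 with A3 exchanged and −0.00798 with the replicate block added, and Birc5 was −0.052 without A3 (−0.052 to 0.32 without each mouse), −0.24 with A3 exchanged and −0.25 with the block added. In sdCAMs Bub1 between contralateral treatments was −1.41 without D1 (−1.41 to 5.21 without each mouse), Cdk1 in the average was −0.11 without A2 (−0.11 to 0.52), and Ccnb2 was −0.65 with the replicate block, −0.69 without A2 and −0.56 without C4 (−0.69 to 1.08). The causes were not tested. Low counts limit most sdCAM values of the kinase, kinetochore and spindle members.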
